A study of Mus musculus with 17 samples.

Results

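Th2 cells labelled Notch1/2 knockout were compared with wild type Th2 cells, both sorted from the mediastinal lymph node, the node that drains the lung. The libraries were chosen by sample title, not by any measured value: 3 wild type and 4 knockout-labelled libraries, 7 of the 17 in the series, described over the 10801 genes with a deposited value of at least 1 in 3 or more of the 7, out of 24537 listed. Both groups came from OTII mice, in which CD4 T cells bear a transgenic receptor specific for ovalbumin, and all animals with sorted node cells had an airway inflammation driven by allergen. The wild type group carried the OTII transgene alone, and the other group carried the OTII transgene with the label Notch1/2-KO. The labels give neither the age of the mice, the allergen and its timing, nor the deleting Cre and the cells in which it acts, and they do not say whether the libraries come from separate animals. If they do not, the p-values measure only the spread between these samples. A Th2 culture of the same 2 genotypes (2 libraries each, naive T cells of the spleen kept 7 days in culture and stimulated through CD3 and CD28, with IL-4 added and IFN-γ and IL-12/23 neutralised) is used below as a comparison.

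Notch receptors are cut after they bind a ligand on a neighbouring cell, and the freed intracellular part enters the nucleus, where it joins the DNA-binding protein RBPJ and a Mastermind coactivator to switch on target genes such as Dtx1 and Hes1. In CD4 T cells, Notch is known to promote Gata3 and Il4 transcription and Th2 responses. Exit from a lymph node depends on the sphingosine 1-phosphate receptor S1PR1, whose gene is a target of the transcription factor KLF2, and the title of the series places its question there, in how Notch bears on the exit of Th2 cells from the node.

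Values are RPKM (reads divided by transcript length and by library size), scaled by 1 factor per library, so that levels of different genes can be set side by side per length. Behind them stood 18.9, 22.4 and 22.7 M reads in wild type and 22.4, 27.5, 24.1 and 19.9 M in knockout-labelled libraries. T cell transcripts were high in all 7, with Cd3e at 264 to 344 and Cd4 at 295 to 414. Of the genes that define Th2 cells, Gata3 (35.3 to 62.2) and Il4 (9.62 to 50.2) were present throughout, Il13 was at 5.73 to 21.7, and Il5 (0.786 to 2.65) and Il1rl1 (0.154 to 1.89) were low. The first principal component held 56.7% of the variance and separated the genotypes. The second, with 21.5%, followed the second of 2 numbers that the column headers carry and whose meaning the labels do not give: the 3 libraries with a second number of 2 lay lowest, and knockout-labelled replicate 2 lay farthest from its group. With that number as a term 2413 genes were called, and with the first number as a term 1531, against 1955 without either.

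With limma and a Benjamini-Hochberg adjusted p under 0.05, 1955 of the 10801 genes were called (18.1%). Of these, 1120 were higher in knockout-labelled cells (10.4% of genes tested) and 835 were lower (7.73%). With the RPKM as deposited the numbers were 995 and 974, so the excess of higher over lower calls depends on the scaling. The changes were mostly moderate: the median size among called genes was 0.58 on the log2 scale, and 312 genes (2.89%) were called and at least 2-fold changed, 186 higher and 126 lower. At least 4-fold changes were found in 27 genes that rose and 34 that fell. In 3372 genes (31.2%) all libraries of one group lay above all of the other, and 1938 of the called genes were among them. Left out 1 at a time, wild type replicate 2 or 3 lowered the count most (1001 and 1043 calls), without knockout-labelled replicate 4 the number that fell was 543, and without knockout-labelled replicate 2 the count was 2717. The number of genes called with any 1 of the 7 libraries left out was 890. Over all genes 600 rose and 401 fell without wild type replicate 2, and 613 and 430 without wild type replicate 3. Without knockout-labelled replicate 2 these numbers were 1563 and 1154. Counts of list members in such fits, given below, belong beside these changed totals and not beside the shares with all 7 libraries.

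**Figure D1:**
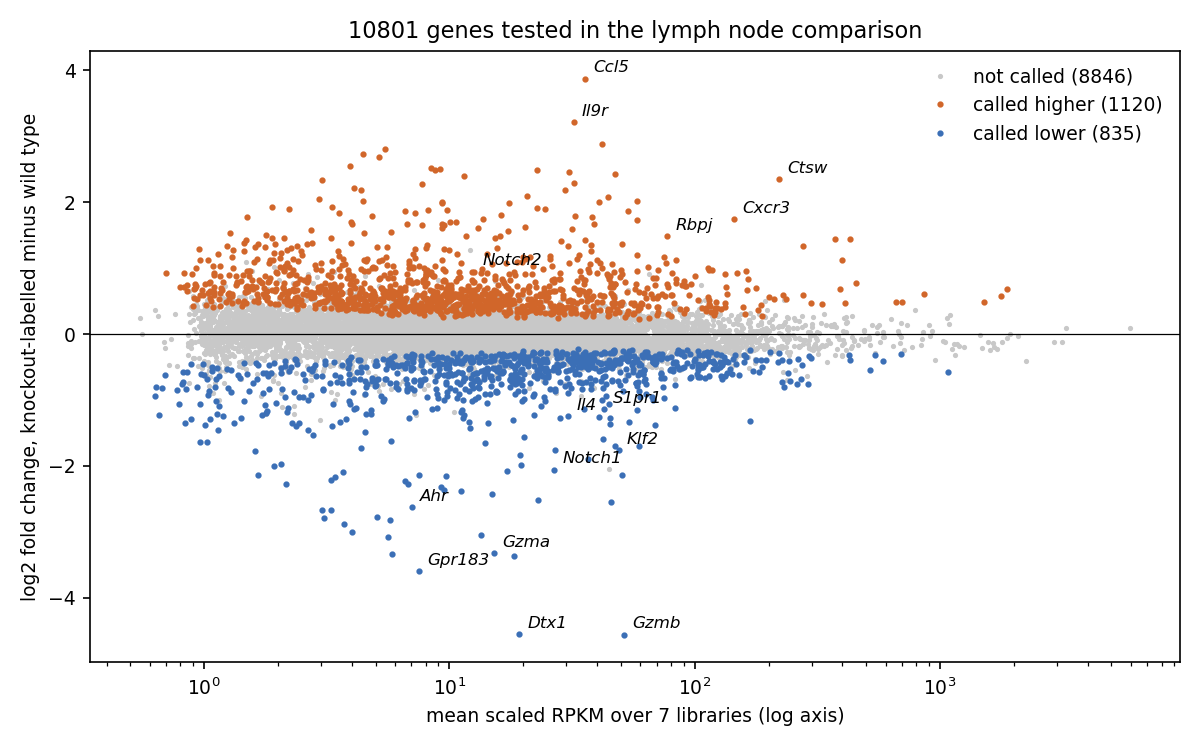
Log2 fold change (knockout-labelled minus wild type, vertical axis) against the mean scaled RPKM of the 7 lymph node libraries (horizontal, log axis) for the 10801 genes tested. Each point is 1 gene, orange where it was called higher (1120), blue where called lower (835) and grey otherwise. Gzmb and Dtx1 lie lowest at -4.56 and -4.55, and Ccl5 lies highest at 3.87.

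The targeted genes come first. Notch1 was at 48.9, 48.5 and 46.2 in the 3 wild type libraries and at 10.2, 8.01, 12.6 and 12.9 in the 4 knockout-labelled ones. All 4 lay below the wild type range, a 4.38-fold difference of the means (log2 fold change -2.06, SE 0.15, adjusted p = 5.51e-05). The remaining reads count over the whole transcript, so a transcript that lacks only the deleted exons would still be counted, and in bulk samples fewer cells with a transcript and less transcript per cell cannot be told apart. Notch2 went the other way, against its label: it was at 8.03, 8.08 and 7.53 in wild type and at 15.0, 14.1, 17.02 and 18.7 in the libraries labelled knockout, and it rose (log2 fold change 0.95, SE 0.11, adjusted p = 0.000592). Its level therefore does not check the Notch2 part of the label. Of the other 7 receptor and ligand genes listed, Notch3, Notch4, Dll1 and Jag1 among them, none was tested and all were below 1 in all 7 libraries. Among the genes that start within 5 Mb of Notch1, 22 of 123 tested were called (17.9%), and near Notch2 it was 17 of 84 (20.2%), close to the 18.1% over all genes.

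Of the 26 tested genes of the Notch machinery, 3 rose, 1 fell and 22 did not pass, beside 10.4% higher and 7.73% lower over all genes. Rbpj, the nuclear partner of Notch, was at 31.9, 39.1 and 41.3 in wild type and at 96.2, 134, 98.7 and 98.8 in knockout-labelled libraries, with the highest value in replicate 2. It rose 2.86-fold (log2 fold change 1.49, SE 0.14, adjusted p = 0.000204). The coactivator gene Maml2 (log2 fold change 0.50) and the gamma-secretase gene Psen2 (0.48) also rose, and Fbxw7, part of a ligase that degrades the Notch intracellular part, fell by 0.33 on the log2 scale. These 3 calls were lost when single libraries were left out, Maml2 with 3 of the 7, Psen2 with 5 and Fbxw7 with 6, while Rbpj was called each time. Without wild type replicates 2 or 3, or with no knockout-labelled replicate 4, 1 machinery gene rose, and without knockout-labelled replicate 2, 6 rose.

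Notch targets did not move as a block. Of 21 listed, 13 were tested: 5 fell (Dtx1, Gzmb, Myc, Ccnd3 and Gata3), 3 rose (Dtx3, Dtx4 and Bcl2) and 5 did not pass. The median log2 fold change was -0.14 against 0.02 over all genes, of which 10.4% were higher and 7.73% lower. Dtx1, which encodes an E3 ubiquitin ligase induced by Notch, was at 52.8, 38.7 and 39.5 in wild type and at 0.734, 0.755, 0.900 and 1.20 in knockout-labelled libraries. The 2 groups lay far apart, with means 48.6-fold different (log2 fold change -4.55, SE 0.14, adjusted p = 1.28e-06), the smallest adjusted p of the comparison. Hes1, often used as a Notch readout, was near 0 in every library (0 to 4 reads) and was not tested. Nrarp, a feedback inhibitor of Notch, was below the minimum for the test as well, at 0.743, 0.690 and 0.609 in wild type and at 0.241, 0.230, 0.307 and 0.185 in knockout-labelled libraries. Il2ra, at 25.2, 46.8 and 38.8 against 19.2, 32.2, 14.5 and 13.5, missed the threshold (adjusted p = 0.0674, log2 fold change -0.90). Tcf7, the gene of a factor that Notch induces in the thymus, was at 620.3, 489.5 and 539 and 493, 498, 600.2 and 643 and did not pass either (adjusted p = 0.931). The calls of Myc, Ccnd3, Gata3, Dtx4 and Bcl2 were each lost with at least 1 library left out: 2 targets fell without wild type replicate 2 and 3 without knockout-labelled replicate 4, and 1 rose without any 1 wild type replicate, or with no knockout-labelled replicate 4.

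The granzyme genes Gzmb and Gzma, which encode granule proteases, fell with more spread between libraries than Dtx1. Gzmb was at 24.3, 142 and 184 in wild type, where replicate 1 stood well under the other 2, and at 3.52, 3.45, 3.38 and 1.16 in knockout-labelled libraries, all below it (log2 fold change -4.56, SE 0.61, adjusted p = 0.00142). Gzma was at 13.7, 42.1 and 42.4 and at 3.12, 3.03, 1.11 and 1.34 (log2 fold change -3.33, SE 0.40, adjusted p = 0.000842). Both calls held with any 1 library left out. Summed NK cell markers were lower as well, 6.93 to 9.95 in wild type and 2.66 to 4.74 in knockout-labelled libraries, with the NK receptor gene Ncr1 at most 0.0983, and their part in the granzyme levels was not tested.

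The stretches before the start sites of Dtx1, Klf2 and Gpr183 are shown, a Notch target, an exit regulator and a chemoattractant receptor. These 3 genes fell without overlap between the groups, as did Gzmb and Gata3, whose windows were searched but are not shown. Gpr183 was picked for this after its values were seen. Each holds the 250 bases before the start, 5′ to 3′ on the gene's strand, from RefSeq on GRCm38.p6, and capitals mark the RBPJ core letters TGGGAA or their reverse TTCCCA.
Dtx1, chr5:120711670-120711919, minus strand: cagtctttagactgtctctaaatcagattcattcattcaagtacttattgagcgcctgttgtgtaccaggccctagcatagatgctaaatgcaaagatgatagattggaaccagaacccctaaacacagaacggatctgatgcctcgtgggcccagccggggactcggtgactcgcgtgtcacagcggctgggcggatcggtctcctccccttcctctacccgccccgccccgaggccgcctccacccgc
Klf2, chr8:72318812-72319061, plus strand: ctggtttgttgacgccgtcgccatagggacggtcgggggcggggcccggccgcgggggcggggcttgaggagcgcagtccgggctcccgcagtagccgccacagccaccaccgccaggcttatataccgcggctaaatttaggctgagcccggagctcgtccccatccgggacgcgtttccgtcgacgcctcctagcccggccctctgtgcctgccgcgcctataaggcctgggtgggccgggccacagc
Gpr183, chr14:121965194-121965443, minus strand: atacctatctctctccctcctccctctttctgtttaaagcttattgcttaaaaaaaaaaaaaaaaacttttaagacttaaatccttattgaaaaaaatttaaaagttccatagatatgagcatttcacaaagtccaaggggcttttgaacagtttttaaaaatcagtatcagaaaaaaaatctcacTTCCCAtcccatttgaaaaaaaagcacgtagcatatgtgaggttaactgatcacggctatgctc
The windows of Dtx1 and Klf2 hold neither TGGGAA nor the longer GTGGGAA, which contains it, on either strand, and that of Gpr183 holds 1 match to the shorter form, which starts at position -64 counted from the start site. The windows of Gzmb and Gata3 hold neither form. Of all 32851 windows of this length, 21.6% hold the shorter and 5.42% the longer form. Over the 8248 tested genes matched to the table, taking the first window of each, the shorter form was in 19.8%. It was in 129 of 652 matched genes called lower and in 163 of 843 called higher (19.8% and 19.3%), and the longer form was in 4.91% and 4.98%. The shares of the 2 groups are thus close to those of all tested genes in this window, and these letters elsewhere in a gene were not searched.

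**Figure D2:**
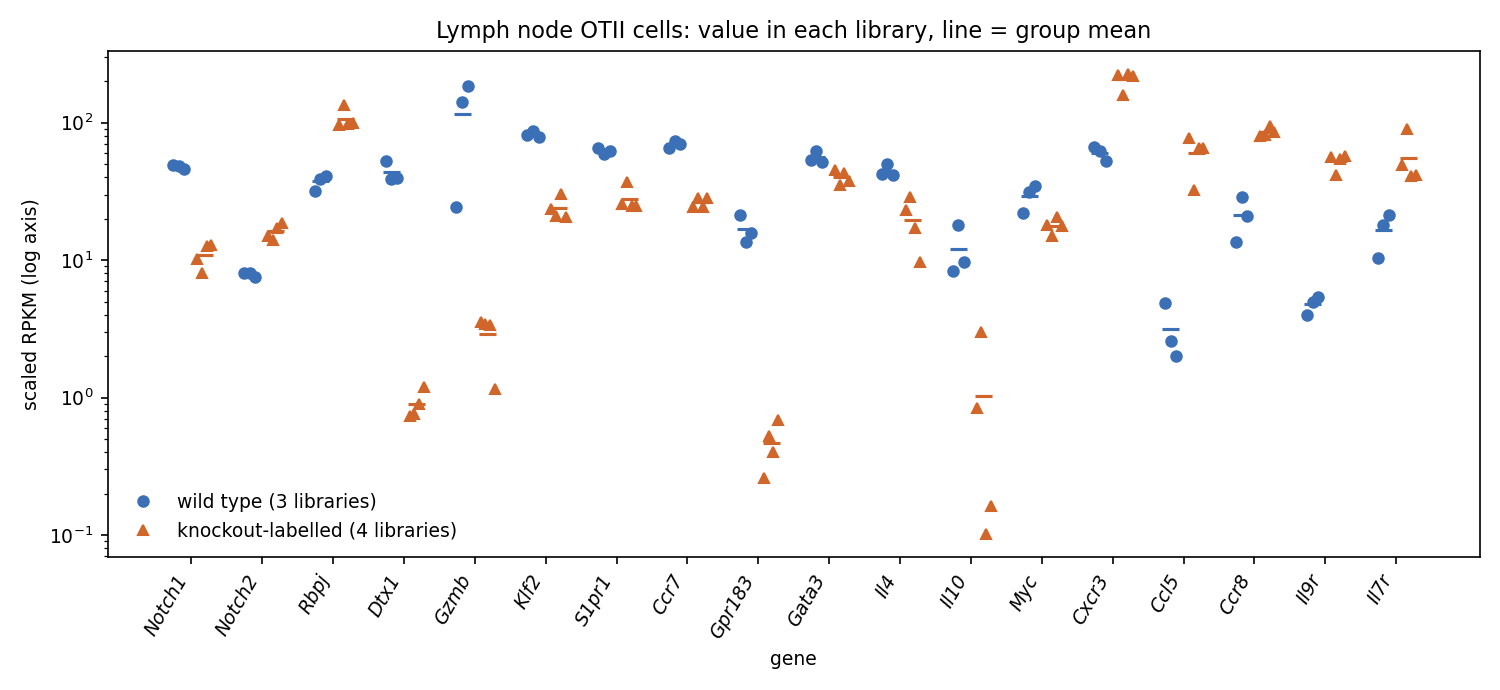
Scaled RPKM (log axis) of 18 genes in each lymph node library, circles for the 3 wild type and triangles for the 4 knockout-labelled libraries, with a line at each group mean. The groups lie apart in all 18, most widely for Dtx1, Gzmb and Gpr183 (lower) and for Ccl5 and Il9r (higher). All 18 were picked among called genes, of which 1938 of 1955 have groups apart, against 31.2% of all genes tested.

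Genes of lymph node exit and retention fell or did not pass, and none rose: 5 of the 15 tested fell (Klf2, S1pr1, S1pr4, Ccr7 and Cxcr4), against 7.73% of all genes. Klf2 was at 81.5, 86.9 and 78.5 in wild type and at 23.7, 21.0, 30.2 and 20.48 in knockout-labelled libraries, a 3.45-fold difference of means with no overlap (log2 fold change -1.76, SE 0.13, adjusted p = 5.86e-05). S1pr1, the receptor that cells follow out of the node, was at 65.4, 58.9 and 62.4 and at 25.8, 37.1, 24.6 and 24.8. It fell in all 4 knockout-labelled libraries and least in replicate 2 (log2 fold change -1.14, SE 0.14, adjusted p = 0.000907). Ccr7, the receptor that guides T cells into the node and holds them in its T cell zone, was at 65.05, 74.0 and 70.1 and at 24.5, 28.2, 24.6 and 28.5 (log2 fold change -1.37, SE 0.09, adjusted p = 3.11e-05). Genes of exit and of retention were thus both among those that fell. Changes of S1pr4 (-0.68, a call lost with 2 of the 7 libraries left out) and of Cxcr4 (-0.50), the receptor for CXCL12, were also negative on the log2 scale. Cd69, whose product removes S1PR1 from the surface, was at 16.4, 27.3 and 30.7 and at 19.9, 31.0, 26.4 and 26.9 without passing the threshold (adjusted p = 0.790, log2 fold change 0.10), nor did Foxo1, the activator of Klf2 (log2 fold change -0.21, adjusted p = 0.117).

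Chemoattractant receptors changed in both directions, 3 of 17 tested rising and 4 falling, beside 10.4% higher and 7.73% lower over all genes. Gpr183, also called EBI2, an oxysterol receptor that places lymphocytes within the node, was at 21.2, 13.6 and 15.8 in wild type and at 0.260, 0.522, 0.403 and 0.686 in knockout-labelled libraries, a 36.1-fold difference of means (log2 fold change -3.59, SE 0.16, adjusted p = 4.59e-06). Ccr2 fell by 2.23 on the log2 scale, from 12.4 ± 4.56 (SD, n = 3) to 2.21 ± 2.08 (SD, n = 4), a call lost in 2 of the 7 fits that dropped 1 library (adjusted p = 0.0544 without wild type replicate 2), and Gpr18 fell by 0.97. Ccr8, a receptor of Th2 and regulatory cells, rose from 13.5, 29.0 and 21.1 to 80.5, 80.8, 94.9 and 86.1 (log2 fold change 2.02, SE 0.21, adjusted p = 0.000353). Cxcr3, the receptor of Th1 cells, rose from 66.6, 62.4 and 53.0 to 221, 160.4, 227 and 218 (log2 fold change 1.74, SE 0.14, adjusted p = 8.45e-05). Cx3cr1 rose from a low level (log2 fold change 0.71), and Ccr4, another Th2 receptor, was at 33.8 to 50.05 over the 7 libraries and did not pass (adjusted p = 0.282).

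Transcription factors of naive and resting memory T cells mostly fell where they were called, while the surface genes were divided. Over all genes 10.4% were higher and 7.73% lower. Of 15 tested factors 6 fell, Klf2, Klf3, Satb1, Bach2, Foxp1 and Myb, and only Ikzf1 rose. Klf3 was at 20.8, 16.5 and 17.4 in wild type and at 2.85, 2.83, 2.99 and 4.74 in knockout-labelled libraries (log2 fold change -2.16, SE 0.16, adjusted p = 5.94e-05). Satb1, a chromatin organiser, was at 87.5, 101.0 and 107 and at 33.0, 34.9, 27.5 and 24.4 (log2 fold change -1.69, SE 0.13, adjusted p = 8.28e-05). In neither gene did the groups overlap. Lef1 missed the threshold (adjusted p = 0.0642, log2 fold change -0.37). Of 16 tested surface genes, Ccr7, S1pr1, Il6ra and Txk, a T cell kinase, fell, while Il7r, Cd44 and Ltb rose. Il7r, the receptor for the survival cytokine IL-7, rose from 10.3, 18 and 21.5 to 48.9, 89.8, 40.9 and 41.9 (log2 fold change 1.66, SE 0.30, adjusted p = 0.00637), with the highest value in replicate 2. Cd44, an adhesion receptor of antigen-experienced cells, rose from 35.9, 32.0 and 32.7 to 49.99, 56.2, 58.3 and 65.3 (log2 fold change 0.75, adjusted p = 0.00125). The calls of Foxp1 and Myb were lost with at least 1 library left out.

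The Th2 genes fell in part, beside 10.4% higher and 7.73% lower over all genes. Of 7 tested cytokine genes Il4, Il10 and Penk fell, none rose, and Il5, Il13, Il21 and Ccl1 did not pass. Il4 was at 42.5, 50.2 and 41.5 in wild type and at 23.1, 28.9, 17.2 and 9.62 in knockout-labelled libraries. The groups did not overlap, but the knockout-labelled values spread widely, and the call (log2 fold change -1.24, SE 0.30, adjusted p = 0.0207) was lost without any of the wild type replicates or knockout-labelled replicate 3 (highest adjusted p = 0.0857). Il10, an inhibitory cytokine, was at 8.41, 17.9 and 9.71 and at 0.845, 3.001, 0.102 and 0.163 and fell (log2 fold change -2.82, SE 0.44, adjusted p = 0.00284), as did the enkephalin gene Penk (log2 fold change -1.28). Il13 was at 5.73, 16.2 and 7.59 and at 19.0, 21.7, 13.3 and 6.90, overlapping and not past the threshold (log2 fold change 0.59, SE 0.40, adjusted p = 0.349). Il5, the eosinophil growth factor gene, was low, at 0.786, 1.31 and 1.30 and 1.44, 2.65, 1.78 and 1.32, and did not pass (adjusted p = 0.187). Areg, the amphiregulin gene, was not tested and was at 0.724, 1.78 and 1.11 in wild type and at 0.0395, 0.0650, 0 and 0 in knockout-labelled libraries.

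Among 16 tested Th2 transcription factor genes, Gata3, Maf, Nfil3 and Satb1 fell and Gfi1 and Ikzf1 rose. Over all genes 10.4% were higher and 7.73% lower, which holds for the receptors below too. Gata3 was at 53.9, 62.2 and 51.8 in wild type and at 45.0, 35.3, 43.1 and 37.8 in knockout-labelled libraries, a small difference without overlap (log2 fold change -0.47, SE 0.11, adjusted p = 0.0169), lost without wild type replicate 2 or knockout-labelled replicate 4 (highest adjusted p = 0.0849). Maf, which activates Il4 and Il10, was at 87.5, 82.2 and 76.1 and at 45.3, 40.4, 25.5 and 21.7 (log2 fold change -1.34, SE 0.23, adjusted p = 0.00491). The Th2 surface receptors were divided, with 3 of 11 tested higher (Il9r, Ccr8 and Il4ra) and 4 lower (Il1rl1, Cysltr1, Icos and Epas1, the last a hypoxia-inducible factor on that list). Il9r, the receptor for IL-9, was at 4.00, 4.93 and 5.42 in wild type and at 56.6, 41.7, 54.5 and 57.4 in knockout-labelled libraries, a 10.99-fold rise (log2 fold change 3.21, SE 0.13, adjusted p = 3.03e-06). Il4ra rose from 24.5, 25.4 and 27.6 to 51.6, 41.6, 57.5 and 50.7 (log2 fold change 0.93, adjusted p = 0.000759). Il1rl1, the IL-33 receptor gene, was near 1 or below, at 1.04, 1.40 and 1.89 and at 0.154, 0.983, 0.183 and 0.241, and its call (log2 fold change -0.84, adjusted p = 0.0281) was lost in 5 of the 7 fits that dropped 1 library, with adjusted p up to 0.117. The calls of Nfil3 and Icos were lost with some libraries left out too, and 2 of the factors fell without wild type replicate 2, and 2 of the receptor genes without wild type replicates 2 or 3, or with no knockout-labelled replicate 1, 3 or 4.

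Part of the Th1 program rose: 5 of 16 tested rose (Tbx21, Ifng, Cxcr3, Ccl5 and Ly6c2), Havcr2 fell, and 10 did not pass. Over all genes 10.4% were higher and 7.73% lower, which holds for the cytotoxic genes below too. Ccl5, a chemokine of Th1 and cytotoxic cells, was at 4.88, 2.58 and 2.01 in wild type and at 78.0, 32.6, 65.1 and 64.95 in knockout-labelled libraries, a 19.1-fold difference of means and the highest fold change among the genes named on the log2(scaled RPKM + 1) scale (log2 fold change 3.87, SE 0.31, adjusted p = 9.23e-05). Tbx21, the gene of the Th1 factor T-bet, rose from 26.2, 27.0 and 20.3 to 67.7, 43.3, 54.6 and 47.2 (log2 fold change 1.08, SE 0.16, adjusted p = 0.00230). Ifng rose from 6.71, 4.54 and 3.90 to 13.9, 14.1, 8.31 and 9.52 (log2 fold change 1.04, SE 0.21, adjusted p = 0.0105), a level below that of Tbx21 in every library. These 5 genes rose in every fit that left out 1 library. Ly6c2 shares most of its sequence with Ly6c1, and how reads were split between them was not tested. The cytotoxic genes moved both ways, with Gzma, Gzmb and Srgn lower and Gzmk, Fasl and Ctsw higher among 11 tested. Ctsw, a cathepsin of cytotoxic cells, rose from 58.6, 73.5 and 62.3 to 361, 257, 367 and 358 (log2 fold change 2.35, SE 0.14, adjusted p = 2.10e-05). The calls of Gzmk, Fasl and Srgn were lost with at least 1 library left out, and 1 cytotoxic gene rose without wild type replicate 2 or 3.

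Lists of other helper subsets and of residency were read beside the same shares over all genes, 10.4% higher and 7.73% lower. Of 4 tested Th17 genes, Ahr and Il1r1 fell. Ahr, the aryl hydrocarbon receptor gene, was at 11.7, 17.4 and 14.0 in wild type and at 1.07, 2.00, 1.68 and 1.22 in knockout-labelled libraries (log2 fold change -2.62, SE 0.17, adjusted p = 3.06e-05), and Il1r1 was at 4.00, 3.498 and 3.79 and at 0.0598, 0.165, 0.0550 and 0.0664 (log2 fold change -2.13, adjusted p = 1.17e-05). Of 15 follicular helper genes tested, Pou2af1, Angptl2, Izumo1r and Icos fell and Cd40lg rose, while Bcl6, Cxcr5 and Pdcd1 did not pass. Izumo1r, which encodes folate receptor 4, was among the abundant transcripts, at 424, 351 and 354 and at 240.5, 159, 255 and 246 (log2 fold change -0.76, adjusted p = 0.0135). Of 14 regulatory T cell genes tested, Ikzf2, Entpd1 and Nt5e fell and Nrp1, Itgae and Ebi3 rose, and Foxp3 was at 1.84 to 2.58 with no call (adjusted p = 0.204). Itgae, the integrin chain CD103 of tissue-resident cells, rose from 1.78, 3.39 and 2.57 to 12.2, 8.18, 16.99 and 11.9 (log2 fold change 1.88, SE 0.23, adjusted p = 0.000811). Of 15 residency genes tested it was 1 of 5 that rose, with Rgs2, Xcl1, P2rx7 and Dusp6, while Ahr and Fabp5 fell. The calls of Icos, Izumo1r, Cd40lg, Rgs2, Xcl1, P2rx7 and Fabp5 were lost with at least 1 library left out: 2 follicular helper genes fell without wild type replicate 1, 5 regulatory genes fell without knockout-labelled replicate 2, 3 residency genes rose without any 1 wild type replicate, and 1 residency gene fell without wild type replicates 2 or 3, or with no knockout-labelled replicate 3 or 4.

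Other genes among the 12 lowest fold changes have no single theme. Fam20a, a pseudokinase gene, was at 13.4, 14.1 and 11.8 in wild type and at 0.472, 0.732, 0.243 and 0.168 in knockout-labelled libraries (log2 fold change -3.34, adjusted p = 4.59e-06). Grhl1, a grainyhead-like transcription factor gene, was at 13.0, 11.5 and 12.4 and at 0.649, 0.727, 0.470 and 0.498 (log2 fold change -3.07, adjusted p = 2.16e-06). Dnase1l3, which encodes a secreted DNase, was at 8.94, 10.1 and 8.04 and at 0.271, 0.267, 0.333 and 0.143 (log2 fold change -2.996, adjusted p = 2.83e-06). In each of these 3 the knockout-labelled libraries were under 1, so these genes entered the test through the wild type libraries alone. Lgmn (legumain, a lysosomal protease; log2 fold change -3.04), Angptl2 (-3.36), Sostdc1 (-2.79) and Rasal1 (-2.77) complete the group.

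Among the 12 highest, Wnt10a and Ifitm10 were below 1 in all 3 wild type libraries and so entered the test through the knockout-labelled libraries alone. Wnt10a, a Wnt ligand gene, was at 0.168, 0.0481 and 0.0941 in wild type and at 5.56, 1.67, 9.94 and 13.7 in knockout-labelled libraries, where replicate 2 was lowest (log2 fold change 2.72, SE 0.49, adjusted p = 0.00572). Nrgn, a calmodulin-binding protein gene, rose from 8.14, 9.08 and 6.76 to 68.6, 41.6, 68.8 and 91.5 (log2 fold change 2.89, adjusted p = 8.69e-05). Hc (complement C5; 2.52), Fgf2 (2.49), Ifitm10 (2.68) and Baiap3 (2.49) also rose, from wild type means of at most 5.41. Klk1b27 (2.80) and Klk1b9 (2.54) belong to a family of kallikrein genes with near-identical copies, so the copy that rose is uncertain.

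**Figure D3:**
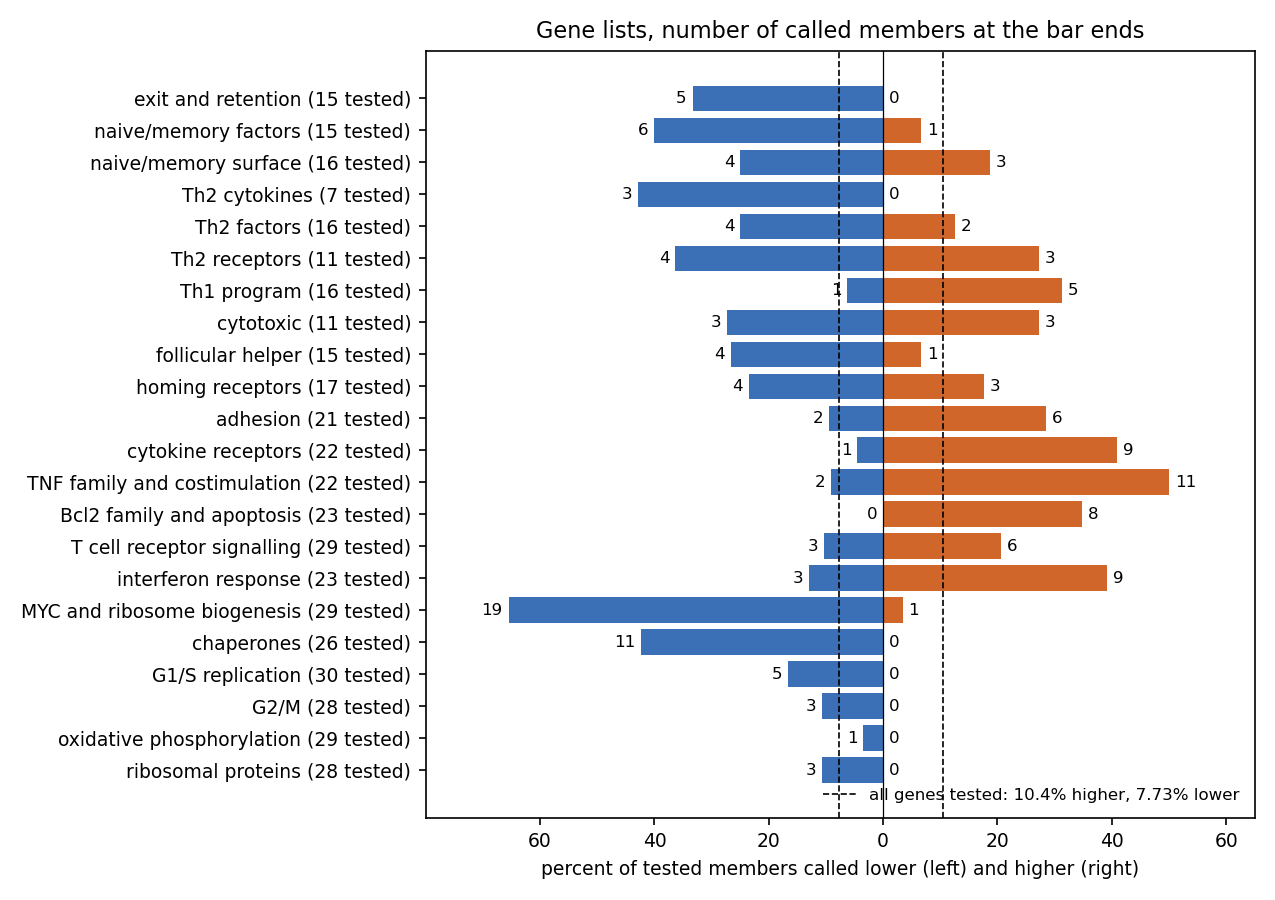
Percent of the tested members of 22 gene lists called lower (left, blue) and higher (right, orange) in knockout-labelled lymph node cells, with the number of called members at each bar end and dashed lines at the shares over all 10801 genes (10.4% higher, 7.73% lower). MYC and ribosome biogenesis genes reach farthest to the left (19 of 29), and TNF family and costimulation genes farthest to the right (11 of 22).

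The listed receptors and ligands by which T cells signal to each other rose more often than genes in general (10.4%). The lists were chosen with earlier results of these data known, so this excess describes the lists and does not test the class. Of 22 tested TNF family and costimulation genes 11 rose and 2 fell (Tnfrsf4, which encodes OX40, and Icos), with a median log2 fold change of 0.35 against 0.02 over all genes, and 9 to 11 rose in the fits that left out 1 library. Tnfsf10, the death ligand TRAIL, rose from 9.73, 8.74 and 9.11 to 40.8, 48.2, 45.8 and 45.7 (log2 fold change 2.18, SE 0.08, adjusted p = 2.83e-06). Tnfsf14, the ligand LIGHT, rose from 15.3, 11.7 and 10.7 to 71.3, 47.4, 81.7 and 93.3 (log2 fold change 2.43, SE 0.21, adjusted p = 0.000160). The neighbouring genes Tnf, Lta and Ltb all rose, by log2 fold changes of 1.77, 2.29 and 1.44, with Lta at 9.91, 8.07 and 8.56 in wild type and at 37.5, 31.7, 57.3 and 71.5 in knockout-labelled libraries. Tnfsf11, Fasl, Cd40lg and the receptor genes Tnfrsf1a, Tnfrsf1b and Tnfrsf25 make up the rest. Of 22 tested cytokine receptor genes 9 rose (Il2rb, Il7r, Il4ra, Il9r, Il10ra, Il10rb, Tgfbr1, Tgfbr2 and Ifnar1) and Il6ra fell. That count was 6 without wild type replicate 2 or 3 and 12 without knockout-labelled replicate 2. Of 23 Bcl2 family and apoptosis genes 8 rose and none fell (adjusted p under 0.05, limma), among them the protective Bcl2l1, from 20.6, 17.6 and 16.5 to 39.1, 31.9, 44.6 and 43.8 (log2 fold change 1.08, adjusted p = 0.000785), Bcl2 (0.51) and the death-promoting Bcl2l11 (0.64), Bik (1.02) and Bbc3 (0.56). Between 4 and 8 of them rose when 1 library was left out, 4 without wild type replicate 2 or 3. Single libraries decided the calls of Fasl, Cd40lg, Icos, Tgfbr1, Tgfbr2, Ifnar1, Bcl2 and Bbc3, and 1 costimulation gene fell without any 1 wild type replicate or without knockout-labelled replicate 1 or 3.

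T cell receptor signalling, activation and checkpoint genes changed in both directions, beside 10.4% higher and 7.73% lower over all genes. Of 29 receptor signalling genes 6 rose and 3 fell. Ubash3a, an inhibitory phosphatase gene, rose from 64.3, 61.3 and 62.3 to 114, 99.0, 116 and 114 (log2 fold change 0.81, SE 0.08, adjusted p = 0.000283), with the lowest knockout-labelled value in replicate 2. Cd3g, a chain of the receptor complex, rose by a log2 fold change of 0.49. Fyn (-0.42), Prkcq (-0.50) and Dgka (-0.47) fell. Early activation genes divided, with Nr4a3 (1.01), Egr2 (0.70), Egr3 (0.58) and Ier3 (0.46) higher and Egr1, Ier2, Zfp36, Myc, Nfkbia and Ppp1r15a lower among 26 tested. Zfp36, which encodes an RNA-destabilising protein, was at 232, 264 and 272 in wild type and at 116, 92.4, 103 and 96.8 in knockout-labelled libraries (log2 fold change -1.32, SE 0.10, adjusted p = 6.96e-05). Egr1, Ier2, Zfp36 and Socs3 are also the 4 members that fell, of 9 tested, on a list of genes that rise when tissue is dissociated, whose summed level was 587 to 736 in wild type and 384 to 508 in knockout-labelled libraries. Its part in these results was not tested. The NF-κB inhibitor genes Nfkbia (-0.71) and Nfkbiz (-1.05) fell while Cyld, Traf1 and Nfkbie rose. Of 16 checkpoint genes tested, Lag3 fell from 344, 362 and 314 to 216, 171, 204 and 218 (log2 fold change -0.75, adjusted p = 0.00162), with Havcr2, Entpd1 and Vsir, and Cd101 and Cd200r1 rose. Ctla4 and Pdcd1 were not called, Pdcd1 at a log2 fold change of 0.66 (adjusted p = 0.0549). Leaving out 1 library ended the calls of Fyn, Cd3g, Egr1, Egr3, Ier3, Ppp1r15a, Nfkbie, Cyld and Traf1. Receptor signalling genes that rose numbered 2 without wild type replicate 2 and 11 without knockout-labelled replicate 2, where 5 fell and 4 checkpoint and 7 NF-κB genes rose. Early activation genes that fell numbered 3 without wild type replicate 2 or 3, and those that rose 2 without wild type replicate 1 or knockout-labelled replicate 4. Of the NF-κB genes 0 rose without wild type replicate 2 and 1 without wild type replicate 3 or knockout-labelled replicate 3 or 4.

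The listed growth genes mostly fell where they were called, beside 10.4% higher and 7.73% lower over all genes. These lists too were chosen with earlier results of these data known. Of 29 tested genes of the MYC program and of ribosome biogenesis 19 fell and 1 rose (Odc1), with a median log2 fold change of -0.59 against 0.02 over all genes. In 23 of the 29 all 4 knockout-labelled libraries lay below all wild type libraries. Over all genes the groups lay apart, in either direction, in 31.2%. Myc itself was at 22.2, 31.1 and 34.4 in wild type and at 18.1, 14.9, 20.7 and 17.7 in knockout-labelled libraries (log2 fold change -0.67, SE 0.16, adjusted p = 0.0186), a call lost without wild type replicate 2 or 3 and without knockout-labelled replicate 4, with adjusted p up to 0.0839. Srm, spermidine synthase, was at 42.5, 61.5 and 52.6 and at 27.0, 20.2, 23.4 and 21.4 (log2 fold change -1.14, SE 0.14, adjusted p = 0.000864). Ddx21, a nucleolar helicase gene, fell from 72.2, 81.0 and 76.9 to 44.6, 48.5, 40.6 and 43.1 (log2 fold change -0.78, SE 0.08, adjusted p = 0.000453), and Mybbp1a fell by 0.78 on the log2 scale. The number that fell was 12 without wild type replicate 2 or 3 and 24 without knockout-labelled replicate 2. Of 26 chaperone genes 11 fell and none rose, Hsp90ab1, a cytosolic chaperone, from 1291, 1394 and 1279 to 924, 854, 951 and 832 (log2 fold change -0.57, adjusted p = 0.00263). That number was 5 without wild type replicate 2, 6 without wild type replicate 3 or knockout-labelled replicate 4, and 15 without knockout-labelled replicate 2. Hspd1 and Hspe1, the mitochondrial chaperonin genes that lie head to head, fell by 0.74 and 0.67 on the log2 scale. Of 20 amino acid and mTORC1 genes 6 fell, the transporter gene Slc7a5 (-1.02) and the serine and one-carbon genes Shmt1, Shmt2, Mthfd2, Psat1 and Asns, and Ddit4, an mTORC1 inhibitor, rose (0.71). Without wild type replicate 2 or 3, 3 fell. The calls of Odc1, Asns, Psat1, Shmt2 and Ddit4 were lost with at least 1 library left out.

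**Figure D4:**
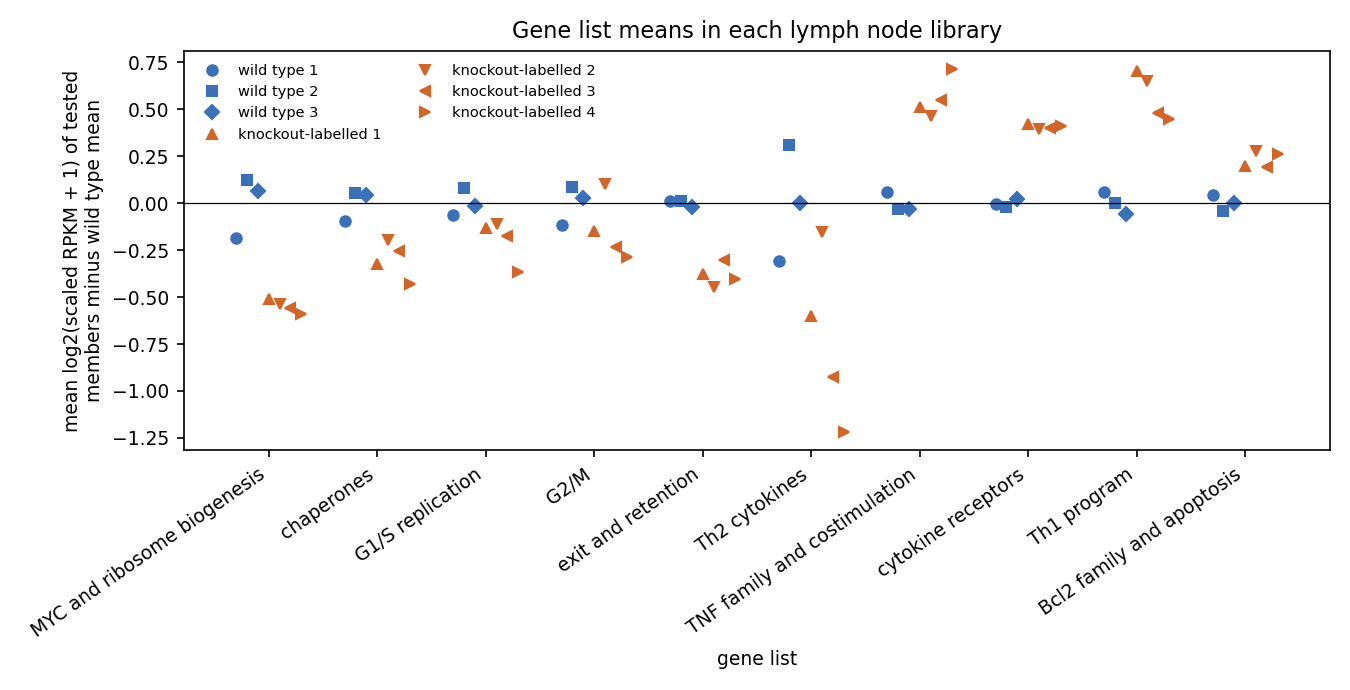
Mean log2(scaled RPKM + 1) of the tested members of 10 gene lists in each lymph node library, as the difference from the mean of the 3 wild type libraries (blue, wild type; orange, knockout-labelled; 1 symbol per library). For MYC and ribosome biogenesis genes the 4 knockout-labelled libraries lie between -0.51 and -0.59, and for G2/M genes they lie between -0.28 and 0.10, with replicate 2 above all wild type libraries.

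Fewer cell cycle genes were called, beside 10.4% higher and 7.73% lower over all genes. Of 30 G1/S and replication genes 5 fell (Pcna, Cdt1, Rrm2, Uhrf1 and Dut), none rose, and the median log2 fold change was -0.19. Rrm2, a ribonucleotide reductase gene, was at 144, 144 and 142 and at 95.8, 117, 98.4 and 87.3 (log2 fold change -0.52, adjusted p = 0.00768). Only 1 fell without wild type replicate 1, 2 or 3 or without knockout-labelled replicate 4, 3 fell without knockout-labelled replicate 3, and 10 fell without knockout-labelled replicate 2. The genes that fell over all genes moved in the same fits, from 835 to 590, 401 and 430 without wild type replicate 1, 2 or 3. They numbered 543, 603 and 1154 without knockout-labelled replicate 4, 3 or 2. Of 28 G2/M genes 3 fell (Birc5, Ccnb1 and Ube2c), near the share over all genes. None of the G2/M genes fell in 5 of the 7 fits with 1 library left out (all but those without knockout-labelled replicate 1 or 2), and 8 fell without knockout-labelled replicate 2. Mki67, a marker of cycling cells, was at 117, 136 and 131 and at 108, 148, 105 and 107 and did not pass (adjusted p = 0.498), with replicate 2 the highest of all 7. Rbl2, a pocket protein that restrains the cycle, rose from 26.4, 21.5 and 22.0 to 42.6, 48.2, 40.2 and 40.7 (log2 fold change 0.86, adjusted p = 0.000715), while the inhibitor genes Cdkn2c (-0.53), Cdkn2d (-0.54) and Cdkn1b (-0.29) fell. Of the inhibitor genes, 2 fell without wild type replicate 2.

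Metabolic lists differed from each other, beside 10.4% higher and 7.73% lower over all genes. Of 29 oxidative phosphorylation genes 1 fell (Atp5b), and of 28 ribosomal protein genes 3 fell (Rpl27, Rps19 and Rps27, each of which has pseudogene copies). Of 18 lipid handling genes 5 rose, Acadl (0.57), Acadvl (0.42), Acadm (0.46), Cpt1a (0.66) and Dgat1 (0.42), the first 4 of fatty acid oxidation, and Fabp5 and Acot7 fell. Of 31 sterol and fatty acid synthesis genes Fads2 (-1.53), Fdps (-0.76) and Fasn (-0.41) fell, and the cholesterol exporter gene Abca1 rose (0.93). In glycolysis and hypoxia, 3 of 26 rose (Slc16a3, Bnip3 and Egln3) and 3 fell (Slc2a1, Ldha and Ankrd37). Single libraries decided much of this: without wild type replicate 2 none of the ribosomal protein, oxidative phosphorylation, lipid handling or glycolysis genes fell, and without wild type replicate 2 or 3 the lipid genes that rose numbered 3. Of the glycolysis and hypoxia genes 1 rose without any 1 wild type replicate and 5 without knockout-labelled replicate 2, none fell without wild type replicate 3 or knockout-labelled replicate 4, and 1 fell without knockout-labelled replicate 3. Of the ribosomal protein genes 1 fell without wild type replicates 1 or 3, or with no knockout-labelled replicate 3 and none without knockout-labelled replicate 4, and 5 synthesis genes fell without knockout-labelled replicate 2.

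Interferon response genes were mixed but more rose: 9 of 23 tested (Stat2, Isg20, Ifit2, Mx1, Usp18, Ddx58, Gbp4, Igtp and Irgm1) against 3 that fell (Isg15, Oas3 and Gbp2), beside 10.4% higher and 7.73% lower over all genes, which hold for the lists below too. Isg15, a ubiquitin-like modifier, was at 42.1, 27.5 and 29.8 in wild type and at 7.74, 6.23, 6.48 and 15.5 in knockout-labelled libraries (log2 fold change -1.84, SE 0.28, adjusted p = 0.00268), opposite in direction to Mx1, at 3.11, 1.73 and 2.14 and at 5.60, 5.93, 5.23 and 8.58 (log2 fold change 1.14, SE 0.18, adjusted p = 0.00358). Without wild type replicate 2 or 3, 3 rose. Of 20 regulators of G protein signalling 7 rose, Rgs16 from 7.88, 8.13 and 7.55 to 43.9, 43.8, 45.1 and 59.1 (log2 fold change 2.46, SE 0.11, adjusted p = 4.67e-06), with Rgs2, Rgs3, Rgs11, Gng2, Arrb1 and Grk5, and Grk6 fell. Adhesion genes rose in 6 of 21 and fell in 2 (1 without any 1 wild type replicate, or with no knockout-labelled replicate 4), with Itgb1, the integrin beta 1 chain, at 253, 203 and 251 and at 380.5, 619, 479 and 593 (log2 fold change 1.12, adjusted p = 0.00268) and Itgb7 lower (-0.73). Of 37 actin and motility genes Myo1f rose (1.08), Anxa1 (-1.18) and Flna (-0.42) fell and 34 did not pass, and of 21 JAK-STAT and feedback genes Stat2 and Tyk2 rose and Socs3 fell (-1.02). Left out 1 at a time, libraries ended the calls of Stat2, Ifit2, Usp18, Ddx58, Gbp4, Igtp, Oas3, Gbp2, Rgs2, Arrb1, Grk5, Grk6 and Tyk2. 1 interferon gene fell without wild type replicate 1 or 3, no JAK-STAT gene rose without wild type replicate 3 and 4 did without knockout-labelled replicate 2, and 4 actin genes rose and 4 fell without the last of these.

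Marker lists of other cells were summed per library in scaled RPKM. Of 9 tested T cell markers only Cd3g rose, and the summed level of that list was 3099 to 3321 in wild type and 3134 to 3759 in knockout-labelled libraries. The basophil genes Mcpt8 and Fcer1a were listed at 0 in all 7 libraries. Hdc, the histamine-forming enzyme gene on that list, fell from 2.02, 2.43 and 1.83 to 0.180, 0.331, 0.110 and 0.134. The list summed to 27.6 to 35.5 and 22.3 to 40.6. Of its 10 genes 8 were below 1 in all 7 libraries, so most of this sum came from another tested gene, which was not called. On the NK cell list Klrb1c fell (log2 fold change -1.996), Ncr1 and Klre1 were below 0.2 throughout, and the sums were 6.93 to 9.95 and 2.66 to 4.74. On the macrophage list Cd68 fell (log2 fold change -0.95), Csf1r was below 0.3, and the sums were 64.3 to 82.9 and 45.4 to 65.5. B cell markers summed to 17.8 to 23.8 and 17.9 to 25.2 with no call among 6 tested, and dendritic cell markers to 87.6 to 115 and 77.8 to 111 with none among 4. Eosinophil and neutrophil markers summed to at most 3.08, and of the sex-linked genes only Xist was above 0, without a call (adjusted p = 0.0671). Stromal markers summed to 36.2 to 43.7 and 40.2 to 44.4, with Epcam higher among 3 tested, CD8 markers to 3.27 to 5.21 and 3.86 to 4.76, and red cell and platelet markers to 1.80 to 4.16 and 1.99 to 5.99. Of 2 tested NK receptor genes of the Klrb1 family, Klrb1c fell and Klrb1f rose (log2 fold change 0.98). The part of these transcripts in the results was not tested.

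The same genotypes were compared in culture, with fewer libraries. There limma called 1 of the 10801 genes, Notch1 (244 at an unadjusted p under 0.05), which averaged 27.9 in wild type and 2.64 in knockout-labelled culture (n = 2 each). The interaction contrast, which tests whether the difference between genotypes itself differs between node and culture, called 434 genes (4.02%), 265 with a higher and 169 with a lower difference in the node, and 430 of them were also called in the node. Klf2 averaged 60.9 and 102 in culture, and the node difference minus that of culture was -2.67 on the log2 scale (adjusted p = 0.00642). S1pr1 averaged 65.3 and 97.4 in culture (-1.74, adjusted p = 0.00467), and Ccr7 averaged 83.8 and 144 (-2.19, adjusted p = 0.00104). In these 3 genes the culture means thus lay the other way round, but none of the 3 was called in culture. Dtx1 averaged 0.229 and 0.0554 in culture, near 0 in both genotypes (-4.33, adjusted p = 8.81e-06), and Grhl1, Sostdc1 and Rasal1 were likewise under 1 there. Gpr183 was expressed in culture, at 6.50 and 7.43, as was Fam20a, at 10.4 and 12.2, and both differences were called (-3.77 and -3.52, adjusted p = 4.22e-05 and 8.35e-05). The differences in Gzmb (-3.38, adjusted p = 0.0728), Il4 (-1.23, adjusted p = 0.196) and Notch1 itself (1.08, adjusted p = 0.207) did not pass. The culture groups hold 2 libraries each, and the call count was 200 without culture wild type replicate 1 and 202 without culture knockout-labelled replicate 2, and 280 and 261 without node wild type replicate 2 or 3.

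**Figure D5:**
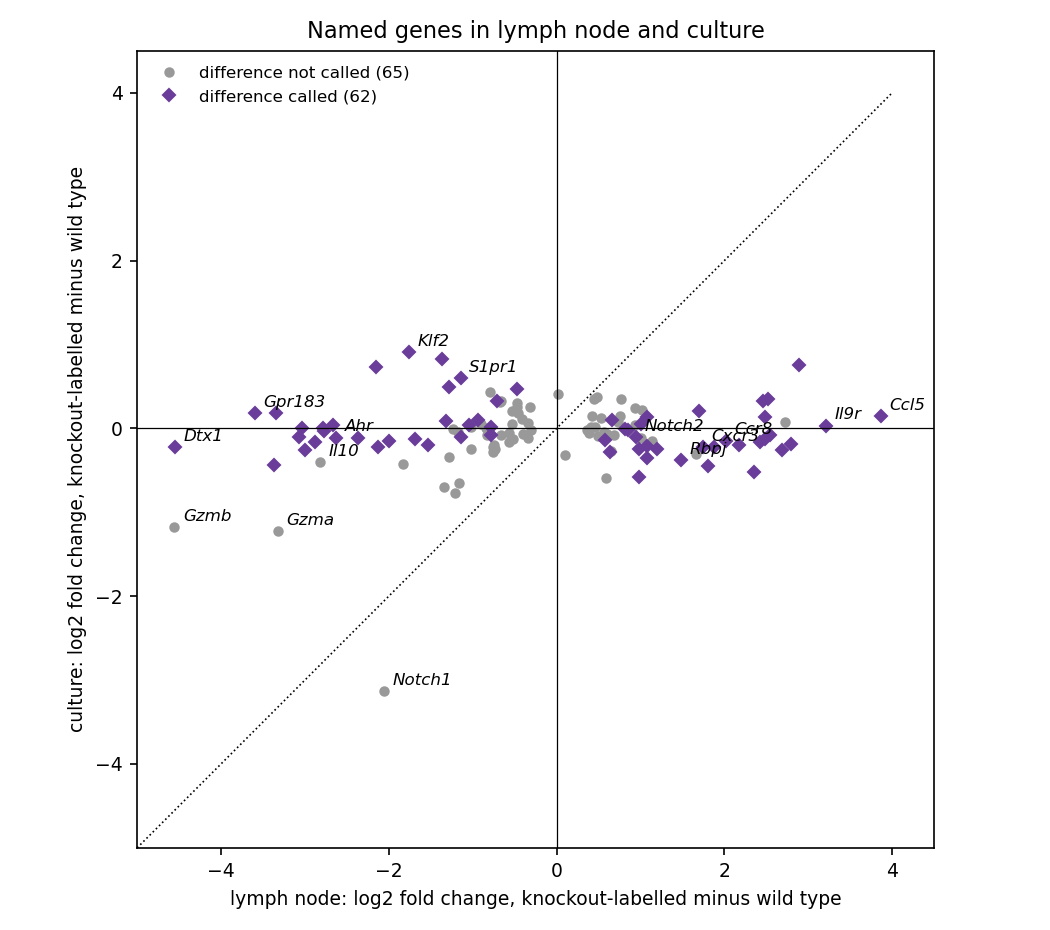
Log2 fold change between genotypes (knockout-labelled minus wild type) in culture (vertical axis) against that in the lymph node (horizontal axis) for the 127 named genes tested, each point 1 gene. Purple diamonds mark the 62 genes whose difference between node and culture was called, grey points the other 65, and the dotted line equal change. Over all genes 4.02% were called, and the named genes were mostly chosen by their node results. Notch1, the 1 gene called in culture, lies low on both axes.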

How the data were processed

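RNA was sequenced by Smart-seq2 from Th2 cells of OTII mice, and the 7 lymph node and 4 culture libraries used here come from one series of 17. Per the submitters' processing notes, HISAT2 2.0.4, HOMER and DESeq2 were used with the build mm10. For each library the authors deposited RPKM per transcript, and the meaning of the 2 numbers in the column headers is not given in the sources used here. All values that correspond to less than 100 reads came out as whole reads (tolerance 0.1 reads) once the library total was recovered, with 18.9 to 27.5 M reads per lymph node library. The symbol was the first field of the annotation, since 29 entries of the symbol column differ from it.

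RPKM values were divided by 1 factor per library (median ratio over 6796 genes at 1 or more in all 17 libraries). Genes with a deposited RPKM of at least 1 in 3 of the 7 libraries were tested on log2(scaled RPKM + 1) with limma 3.58.1 (R 4.3.3, trend), and p-values were Benjamini-Hochberg adjusted over all 10801. Fold changes are on that scale, which understates the change of low genes. Genes under 1 in every library of 1 group, such as Gpr183, Il1r1, Fam20a, Wnt10a and Il2, passed the minimum only through the other group. Their calls and ranks thus rest on a filter that they met where they are high. The interaction contrast used the 11 OTII libraries. Tests were checked on simulated data. Named were a fixed set, the 12 highest and 12 lowest fold changes without overlap and reaching 5 on average in the group where they are higher, the 3 smallest p of each list (of 52) with 2 or more calls, and the 5 smallest interaction p. The members and lists were chosen with earlier results of these data known, so a list's share beside that of all genes is a description and not a test. Promoter windows came from RefSeq on GRCm38.p6. Precision is limited by the number of libraries, and intervals from counting are not given. Reporter-mouse libraries were not used in the comparison. A few genes of the lists and of the fixed set are not reported here and were left out of the list counts.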

Additional observations from a re-analysis of the deposited data

Results flagged for a closer look

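For 62 of the 127 named and tested genes the difference between genotypes in the lymph node was not that of culture (interaction contrast, limma, adjusted p under 0.05). Over all 10801 genes 4.02% were called in this contrast. The named genes were mostly chosen by their node results, and 122 of them were called in the node. Their count thus follows in part from that choice and is not a test. The values are the node difference minus the culture difference on the log2 scale, with 3 and 4 libraries in the node and 2 and 2 in culture. The 32 with a more positive difference in the node were led by Ccl5 3.72, Il9r 3.18, Klk1b27 2.99, Ifitm10 2.95, Ctsw 2.87, Klk1b9 2.62, Baiap3 2.62, Tnfsf14 2.60, Tnfsf10 2.37, Fgf2 2.35, Ly6c2 2.25, Ccr8 2.17, Hc 2.17 and Rgs16 2.13. Next came Nrgn 2.13, Itgae 2.10, Cxcr3 1.97, Rbpj 1.87, Klrb1f 1.56, Cd101 1.48, Rgs3 1.44, Myo1f 1.44, Tnfrsf1a 1.29, Isg20 1.23, Notch2 1.05, Bcl2l1 0.95 and Cd96 0.95. Then followed Gng2 0.92, Rbl2 0.87, Ubash3a 0.82, Acadl 0.71 and Il10rb 0.55. The 30 with a more negative difference were led by Dtx1 -4.33, Gpr183 -3.77, Fam20a -3.52, Lgmn -3.04, Grhl1 -2.97, Angptl2 -2.92, Klf3 -2.89, Sostdc1 -2.79, Rasal1 -2.74, Dnase1l3 -2.73, AW011738 -2.71, Prag1 -2.70, Klf2 -2.67 and Ahr -2.52. They were followed by Pou2af1 -2.25, Ccr7 -2.19, Il1r1 -1.91, Klrb1c -1.85, Txk -1.78, S1pr1 -1.74, Satb1 -1.57, Zfp36 -1.41, Fads2 -1.34, Nfkbiz -1.09, Srm -1.04, Entpd1 -1.04 and Nfkbia -1.04. At the end stood Gata3 -0.93, Mybbp1a -0.79 and Ddx21 -0.70. Klf2, S1pr1, Ccr7 and Gpr183 are among the more negative, and the homing receptor genes Ccr8 and Cxcr3 are among the more positive. Klk1b27 and Klk1b9 share near-identical copies, and AW011738 and Prag1 were named by the p of this contrast alone.

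In 15 cases 1 of the 4 knockout-labelled libraries stood apart from the other 3 in scaled RPKM by Dixon's 95% criterion, which chance alone meets in about 1 in 20 groups. Knockout-labelled replicate 2 was highest for Rbpj (134), S1pr1 (37.1), Il1rl1 (0.983), Il7r (89.8) and Il1r1 (0.165). Knockout-labelled replicate 2 was lowest for Cxcr3 (160.4), Ctsw (257), Izumo1r (159) and Ubash3a (99.0). Knockout-labelled replicate 4 was highest for Rgs16 (59.1), Klf3 (4.74) and Isg15 (15.5). Knockout-labelled replicate 4 was lowest for Gzmb (1.16), Shmt1 (7.71) and Hspe1 (74.6). Replicates 2 and 4 are those with a second header number of 2.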

How the results depend on the processing

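The 1955 calls (1120 higher, 835 lower) stayed within 1.5 times under the deposited scale, the other scaling, 2 pseudocounts, no minimum, a minimum of 5, voom on recovered reads, all 11 OTII libraries, either header number as a term, and means per first number, with 1478 to 2413 calls. A correlation within the first number gave 3011 calls (1356 lower). Title numbers did not pair the libraries (correlation of deviations -0.06, -0.28 and -0.33), and with a replicate block 632 genes were called (378 higher, 254 lower) and 151 in the interaction (93 higher, 58 lower). In that fit knockout-labelled replicate 4 has no partner and does not bear on the difference. Leaving out 1 library gave 1001 to 2717 calls (600 to 1563 higher, 401 to 1154 lower) and 200 to 555 interaction calls (114 to 354 higher, 80 to 224 lower). The cause was not tested. No gene called both ways changed its sign. Of 127 named and tested genes 89 held under all settings. Only Cd69 and Tcf7, neither of them called, changed sign. Cd69 ranged from -0.16 without wild type replicate 1 to 0.27 without wild type replicate 3. Tcf7 ranged from -0.060 without wild type replicate 2 to 0.11 without wild type replicate 1, and was -0.012 on the deposited scale, -0.051 with the replicate block and -0.025 with means per first number. Genes far below 1 RPKM can rest on few reads, such as Hes1 with 0 to 4 per library.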

Other observations

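Several called genes lie outside the lists above and were chosen after their values were seen. Among regulators of small GTPases, Rasgrp2, which activates RAP1, was at 85.3, 92.4 and 83.4 in wild type and at 14.1, 14.9, 17.1 and 11.01 in knockout-labelled libraries (log2 fold change -2.54, limma adjusted p = 9.75e-06). Rasa3, a GTPase-activating protein gene, was at 77.4, 81.1 and 77.6 and at 20.52, 28.0, 22.5 and 23.4 (log2 fold change -1.70, adjusted p = 2.20e-05), so that an activator and a suppressor fell side by side. Csf1, the macrophage growth factor gene, was at 23.4, 23.2 and 17.9 and at 4.01, 4.49, 2.32 and 2.79 (log2 fold change -2.37, adjusted p = 8.45e-05). Vdr, the vitamin D receptor gene (log2 fold change -1.35), the kinase gene Pim1 (-1.01) and the membrane protein genes Ifitm2 (-1.75) and Ifitm3 (-1.65) also fell, Ifitm3 in only 3 of the 7 fits that left out 1 library.

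In the other direction, Il2, the T cell growth factor gene, was at 0.348, 0.398 and 0.440 in wild type and at 4.31, 3.39, 5.51 and 6.15 in knockout-labelled libraries (log2 fold change 2.04, limma adjusted p = 0.000110), low in both groups but without overlap. Id2, an inhibitor of E proteins, rose from 98.4, 107 and 106 to 227, 224, 202 and 164 (log2 fold change 0.96, adjusted p = 0.000905). Batf3, an AP-1 family factor gene, rose from 6.10, 7.07 and 5.47 to 44.0, 23.2, 40.5 and 18.2 (log2 fold change 2.09, adjusted p = 0.00139). Ctsd, a lysosomal protease gene, rose from 162, 142 and 136 to 360.3, 302, 391 and 443 (log2 fold change 1.34), opposite to the lysosomal protease gene Lgmn. Gimap4, Trat1, Sorl1, Cd38, Fgl2 and Serpina3g rose as well, by log2 fold changes of 0.77, 2.00, 1.87, 1.87, 1.90 and 2.07.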
